A study of Mus musculus with 6 samples.

Results

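The endoplasmic reticulum (ER) is where secreted and membrane proteins enter the secretory pathway, fold and are inspected. The genes described here are 34 mouse genes that encode ER chaperones and their cofactors, protein disulfide isomerases, parts of the translocon, components of ER-associated degradation (ERAD) and the sensors and transcription factors of the unfolded protein response. They were chosen by name, with earlier results of these data known. All 34 were found, each as 1 gene ID, among the 25751 gene IDs of the count table. All 34 passed the filter on low counts and were tested.

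The counts came from poly(A)-selected RNA-seq of primary wild-type (WT) mouse myeloid cells at 24 h, with 3 libraries of cells given trimethylamine N-oxide (TMAO) and 3 Control libraries. TMAO is a small osmolyte that the liver makes from trimethylamine released by gut bacteria. The labels give no dose. Their short sample names call the treated libraries T-BMDM and the others Control, and an effect of TMAO and one of any difference in cell source cannot be told apart. Whether replicates were independent cultures or animals is not stated, and the p-values therefore reflect the variation among 6 libraries, part of which may be technical.

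The unfolded protein response has 3 sensors in the ER membrane. ATF6 moves to the Golgi, is cut there and releases a transcription factor that acts mainly on chaperone genes. IRE1, encoded by Ern1, splices Xbp1 mRNA, and the spliced product drives genes of ERAD, translocation and secretion. PERK, encoded by Eif2ak3, phosphorylates a translation initiation factor, which lowers most protein synthesis and favours translation of ATF4. Macrophages use the same machinery to make their cytokines, receptors and lysosomal enzymes. Counts per gene hold no information on Xbp1 splicing, ATF6 cleavage or PERK activity.

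The genes moved in both directions with TMAO. Hspa5, Manf, P4hb, Creld2, Herpud1, Derl1, Sec61b and Xbp1 were among those that rose, whereas Hsp90b1, Canx, Dnajc3, Sel1l, Edem1, Os9 and Atf6 were among those that fell. By edgeR's quasi-likelihood test at an adjusted p under 0.05 over all genes, 15 of the 34 rose, 10 fell and 9 did not pass. Over all 14626 genes tested, 65.7% were called, 33.0% higher and 32.7% lower. The share called among the 34 genes was 73.5%, near that background. Their median log2 fold change was 0.06 (0.19 without TMAO replicate 2), against 0.01 over all genes tested. Most changes were small: 3 rose and 1 fell by at least 2-fold, whereas 30.4% of all genes tested did so. The level in CPM, which is the count scaled to the library total with TMM factors, did not overlap between groups for 27 of the 34 genes and for 71.0% of all genes tested. Against a fold of 1.5, edgeR called 6 higher (Hspa5, Manf, P4hb, Herpud1, Derl3 and Sec61b) and 1 lower (Atf6), where it called 35.4% of all genes tested.

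**Figure D1:**
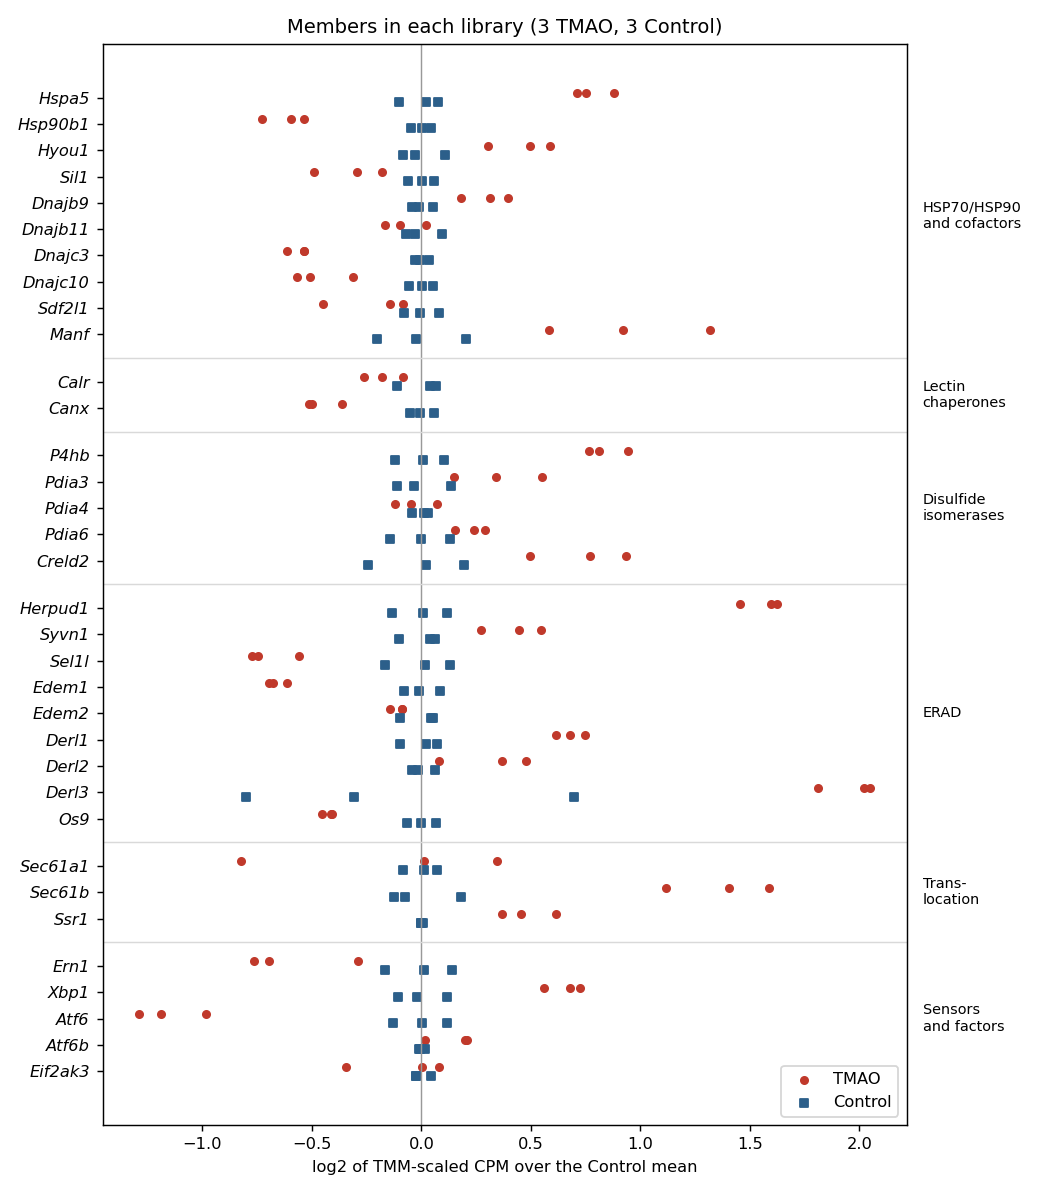
Each row is a gene and each point a library, placed on the log2 scale of TMM-scaled CPM over the mean of the 3 Control libraries, with TMAO circles above Control squares. Herpud1, Sec61b and Derl3 lie farthest to the right in the TMAO libraries and Atf6 farthest to the left, and the 3 TMAO points of Sec61a1 spread over both sides of the Control points.

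Summed over the 34 genes, the level was 7262, 7680 and 7622 CPM in the TMAO libraries, against 6740, 6875 and 6435 CPM in the Control libraries. These sums did not overlap, and they correspond to 0.739% to 0.751% of all counts with TMAO and 0.658% to 0.685% in Control. Hspa5 and P4hb, the genes whose CPM rose most, summed to 2128, 2303 and 2288 CPM with TMAO, against 1290, 1358 and 1182 CPM in Control. Leaving out the genes with the largest rises must lower the difference, so the sums without them are a description. The other 32 genes summed to 5134, 5378 and 5334 CPM with TMAO, against 5450, 5516 and 5252 CPM in Control. These sums overlapped, with rises and falls among the 32 genes. Of 17 chaperones, cofactors and isomerases, 7 rose and 5 fell. Of 12 ERAD and translocation genes, 7 rose and 3 fell, and of the 5 sensors and factors, 1 rose and 2 fell. In CPM per kilobase of the longest annotated transcript, the ER chaperone gene Calr was highest in both groups, at 466 ± 28.9 with TMAO and 526 ± 34.9 in Control (SD, n = 3 each). With TMAO it was followed by P4hb (365 ± 23.7), Hspa5 (325 ± 20.4) and Pdia3 (272 ± 38), and the SD range of Hspa5 overlapped those of P4hb and Pdia3. In Control the same 3 genes followed Calr at 212 ± 18.5 (Pdia3), 204 ± 15.8 (P4hb) and 189 ± 12.0 (Hspa5), and the SD ranges of all 3 overlapped. The lowest levels per length in both groups were those of Ern1, Eif2ak3 and Derl3.

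Promoter sequence is shown before the values because 9 of these genes share an element that is rare among promoters. The ER stress response element (ERSE), to which the factor NF-Y and the ATF6 or XBP1 protein are known to bind, was searched as CCAAT and CCACG with 9 bases between them, on both strands, from 250 bases before to 50 bases after the annotated start. RefSeq windows on GRCm38.p6 were at hand for 28 of the 34 genes. An ERSE match was present for 9 of these 28 genes, and for 1 of 63 other genes of the ER pathway with a window. Over all 27025 genes with a window, 0.137% held one, as did 0.119% of all 32851 windows. The 34 genes were chosen by name for their part in ER folding and its stress response. A high share may follow from that choice, and it was not tested. Of the 9 genes, 4 rose (Hspa5, Creld2, Syvn1 and Derl3), 3 fell (Hsp90b1, Canx and Dnajc3) and 2 did not pass the test (Calr and Pdia6). Genes with the same match therefore lay on both sides. The windows below are RefSeq sequences read along the gene's strand, with the letters of the motif in capitals and 15 bases on each side. CGTGG and ATTGG in capitals mark a match on the opposite strand.

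Hspa5 (chr2:34772010-34772058, + strand): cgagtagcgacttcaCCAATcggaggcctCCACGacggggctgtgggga
Creld2 (chr15:88819505-88819553, + strand): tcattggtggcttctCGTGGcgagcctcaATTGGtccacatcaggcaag
Syvn1 (chr19:6046517-6046565, + strand): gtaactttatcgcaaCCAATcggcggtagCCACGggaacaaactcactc
Derl3 (chr10:75893227-75893275, + strand): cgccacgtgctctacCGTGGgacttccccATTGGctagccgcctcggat
Hsp90b1, farther match (chr10:86705623-86705671, - strand): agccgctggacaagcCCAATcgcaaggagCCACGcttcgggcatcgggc
Hsp90b1, nearer match (chr10:86705518-86705566, - strand): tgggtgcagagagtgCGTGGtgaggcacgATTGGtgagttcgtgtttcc
Canx (chr11:50325785-50325833, - strand): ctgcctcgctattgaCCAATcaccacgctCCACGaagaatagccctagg
Dnajc3 (chr14:118937812-118937860, + strand): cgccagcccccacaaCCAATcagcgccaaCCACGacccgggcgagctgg

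The matches lay between 26 and 212 bases before the annotated start. Hsp90b1 was the one gene of the 9 with 2 matches, and it fell. A second element, ERSE-II, was searched as ATTGG and CCACG with 1 base between them. It was present for Herpud1, whose rise was the largest of the 34 genes after Derl3, and for Dnajb11, which did not pass the test. Over all genes with a window, 0.0444% held it, as did 0.0365% of all windows. In Herpud1 it lay 52 to 42 bases before the start.

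Herpud1 (chr8:94386362-94386402, + strand): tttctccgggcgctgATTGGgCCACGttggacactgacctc

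The core TGACGTGG of the unfolded protein response element was found in none of the 29 windows of these 28 genes, in 0.676% of all windows and for 4 of the 63 other genes of the ER pathway. A match describes letters in these windows and not binding, which was not measured. No ERSE or ERSE-II match was found in the windows of P4hb, Sec61b, Xbp1, Sel1l, Edem1, Os9 or Ern1. Atf6, Derl1, Hyou1, Manf, Sec61a1 and Sil1 had no window in the table used.

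The chaperones of the HSP70 and HSP90 families in the ER moved apart. Hspa5, which encodes BiP, the main HSP70 of the ER and the protein that holds the sensors inactive, had 1137, 1279 and 1167 CPM in the TMAO libraries, against 705, 732 and 646 CPM in the Control libraries. All TMAO values lay above all Control values (log2 fold change 0.78, SE 0.09, edgeR adjusted p = 2.95e-05), a 1.72-fold rise. Hsp90b1, which encodes the HSP90 of the ER, a chaperone of Toll-like receptors and integrins, had 266, 256 and 233 CPM with TMAO, against 398, 387 and 374 CPM in Control. Here all TMAO values lay below the Control values (log2 fold change -0.62, SE 0.08, edgeR adjusted p = 9.95e-05). With the trend on GC content removed from every library it was still called lower, at -0.37. The ratio of Hspa5 to Hsp90b1 CPM within a library was accordingly 4.28, 4.99 and 5.01 with TMAO, against 1.77, 1.89 and 1.73 in Control. Both genes hold ERSE matches, shown above.

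The cofactors of BiP also divided. Manf, a secreted partner of BiP that stabilises its ADP-bound form, had 90.1, 150 and 114 CPM with TMAO, against 59.2, 69.3 and 52.3 CPM in Control. It rose 1.96-fold (log2 fold change 0.97, SE 0.17, edgeR adjusted p = 0.000575), with no overlap but with a wide spread among the TMAO libraries. Hyou1, a large HSP70-related protein that exchanges nucleotide on BiP, rose to 158 ± 15.7 CPM with TMAO, against 114 ± 7.57 CPM in Control. Sil1, the other nucleotide exchange factor of BiP in the set, fell to 26.1 ± 2.83 CPM, against 32.5 ± 1.35 CPM (edgeR adjusted p = 0.0208), and lost its call when any of 4 single libraries was left out (edgeR adjusted p = 0.0546 to 0.0793). Those libraries were TMAO 1, TMAO 3, Control 1 and Control 2.

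Among the DnaJ-type cochaperones, which stimulate the ATPase of BiP, Dnajc3 and Dnajc10 fell and Dnajb9 rose. Dnajc3, also known as a brake on eIF2alpha kinases, had 74.7, 74.8 and 70.8 CPM with TMAO, against 108, 106 and 111 CPM in Control, a log2 fold change of -0.56 (SE 0.08). Dnajc10, a reductase that acts in ERAD, fell to 68.3 ± 6.51 CPM, against 93.7 ± 3.58 CPM. Dnajb9, which represses IRE1 through BiP, rose to 44.7 ± 3.24 CPM, against 36.3 ± 1.31 CPM (edgeR adjusted p = 0.0153). The call of Dnajb9 was lost without Control replicate 1 (edgeR adjusted p = 0.0832) and with the trend on transcript length removed (edgeR adjusted p = 0.0653). Dnajb11, whose protein helps BiP bind unfolded clients, was at 108 ± 6.92 and 114 ± 6.96 CPM and did not pass the test. Sdf2l1, a partner of Dnajb11, was at 62.3 ± 8.16 CPM with TMAO and 72.4 ± 3.96 CPM in Control and did not pass either (edgeR adjusted p = 0.103), although it was called lower without TMAO replicate 2 (log2 fold change -0.29, edgeR adjusted p = 0.0469).

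The lectin chaperones calnexin and calreticulin hold glycoproteins while they fold. Canx, the membrane-bound form, had 400, 360 and 363 CPM with TMAO, against 512, 495 and 534 CPM in Control, and fell (log2 fold change -0.46, SE 0.08, edgeR adjusted p = 0.00073). It was called lower at smaller values with the trend on transcript length removed (-0.25) and with that on GC content removed (-0.21). Calr, the soluble form, had 958, 1014 and 1084 CPM with TMAO, against 1180, 1205 and 1062 CPM in Control. The highest TMAO library of Calr passed the lowest Control library, and its difference missed the threshold (log2 fold change -0.17, SE 0.09, edgeR adjusted p = 0.112).

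Protein disulfide isomerases form and shuffle disulfide bonds. Of the 5 genes of this kind, 3 rose and none fell. P4hb, which encodes the archetypal isomerase PDI, had 991, 1023 and 1121 CPM with TMAO, against 585, 626 and 536 CPM in Control, a 1.79-fold rise with no overlap (log2 fold change 0.84, SE 0.09, edgeR adjusted p = 2.24e-05). Creld2, a small stress-induced isomerase-like gene, rose 1.67-fold to 45.3 ± 6.81 CPM, against 27.0 ± 4.06 CPM. Pdia3, the isomerase that works with calnexin and calreticulin, rose 1.28-fold to 753 ± 105 CPM, against 588 ± 51.4 CPM (edgeR adjusted p = 0.0184). The call of Pdia3 was lost when TMAO replicate 2, TMAO replicate 3, Control replicate 1 or Control replicate 3 was left out (edgeR adjusted p = 0.0509 to 0.0771). Pdia6, which can turn off IRE1, was at 230 ± 11.2 and 197 ± 18.4 CPM and just missed the threshold (edgeR adjusted p = 0.0536), and 8 of 19 alternatives called it higher. Pdia4 was at 80.8 ± 5.42 CPM with TMAO and 82.5 ± 2.11 CPM in Control and did not pass.

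**Figure D2:**
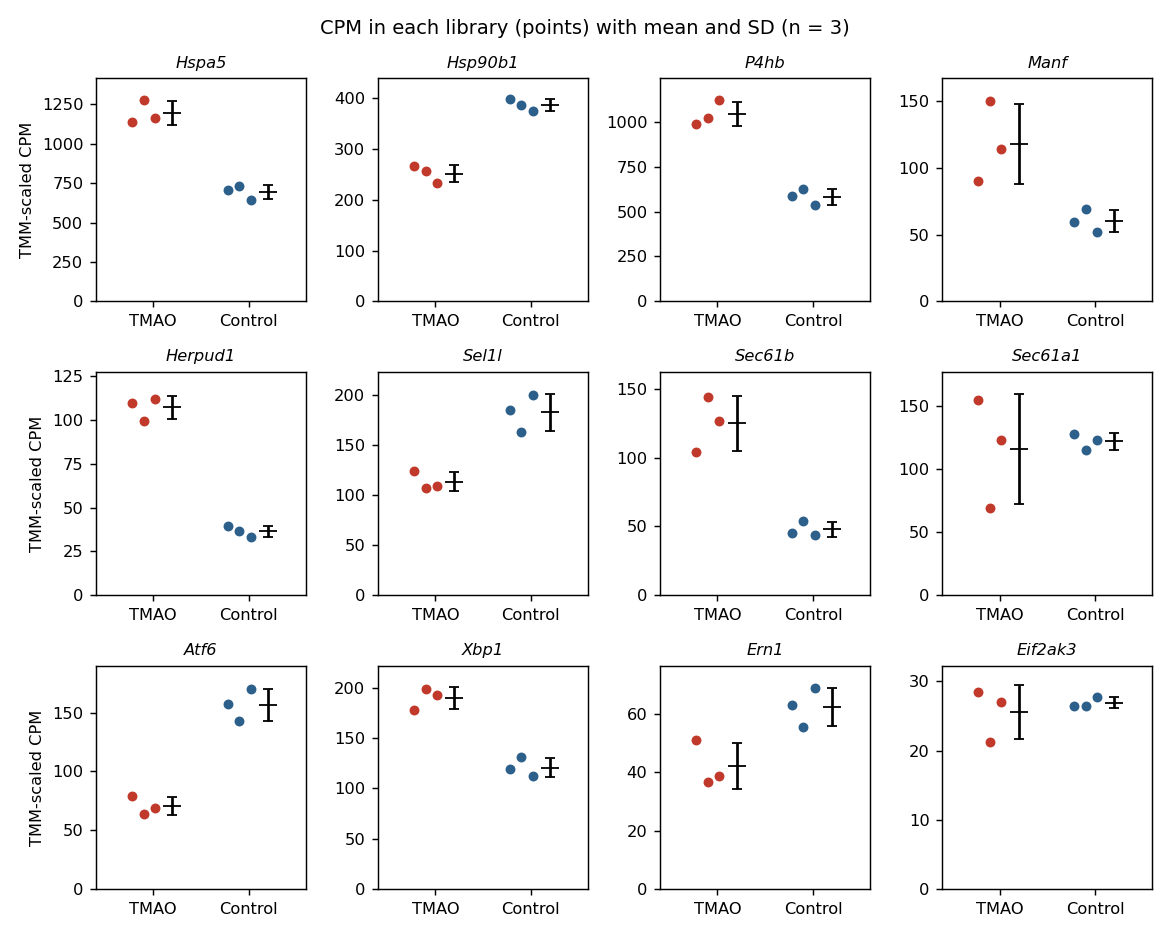
Points are TMM-scaled CPM in each library, with TMAO left of Control in every panel, and the bar beside them is the mean with its SD over 3 libraries. Hspa5, P4hb, Manf, Herpud1, Sec61b and Xbp1 were higher in every TMAO library than in any Control library, Hsp90b1, Sel1l, Atf6 and Ern1 were lower, and Sec61a1 and Eif2ak3 overlapped.

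ERAD draws misfolded proteins back to the cytosol for degradation through a channel built around the ubiquitin ligase HRD1. Of 9 ERAD genes, 5 rose, 3 fell and 1 did not pass the test. Herpud1, which assembles the HRD1 complex and is induced strongly in ER stress, had 110, 99.7 and 112 CPM with TMAO, against 39.4, 36.5 and 33.1 CPM in Control. This was a 2.94-fold rise (log2 fold change 1.56, SE 0.10, edgeR adjusted p = 5.02e-07). Syvn1, which encodes HRD1 itself, rose 1.34-fold to 74.2 ± 7.08 CPM, against 55.2 ± 3.29 CPM, but was not called with the GC trend removed (log2 fold change 0.21, edgeR adjusted p = 0.0653). Sel1l, the partner that stabilises HRD1, had 124, 107 and 109 CPM with TMAO, against 185, 163 and 200 CPM in Control, and fell 1.61-fold (log2 fold change -0.69, SE 0.10, and -0.20 with the length trend removed). Os9, a lectin that passes glycoproteins to SEL1L, fell to 178 ± 3.31 CPM, against 239 ± 11.4 CPM.

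Mannosidase-like EDEM proteins mark glycoproteins for disposal. Edem1 had 153, 162 and 155 CPM with TMAO, against 246, 234 and 263 CPM in Control, and fell 1.58-fold (log2 fold change -0.66, SE 0.08, edgeR adjusted p = 5.32e-05), with a log2 fold change of -0.19 once the length trend was removed. Edem2, which makes the first cut in the mannose tree, was at 126 ± 2.96 and 136 ± 7.79 CPM and did not pass the test. Derlins are rhomboid-like proteins of the channel. Derl1 rose 1.60-fold to 183 ± 8.53 CPM, against 115 ± 6.72 CPM, and Derl2 rose 1.25-fold to 73.8 ± 10.2 CPM, against 59.2 ± 2.25 CPM. The call of Derl2 (edgeR adjusted p = 0.0258) was lost without TMAO replicate 2, TMAO replicate 3, Control replicate 1 or Control replicate 2 (edgeR adjusted p = 0.0677 to 0.102). Exons of Derl2 overlap those of Mis12 on the opposite strand by 231 bp, those of Manf overlap Dcaf1 by 146 bp and Rbm15b by 14 bp, and those of Syvn1 overlap Mrpl49 by 91 bp. These neighbours had 15.9 to 40.9 CPM on average in either group, the strand setting of the counts is not known, and the values of Derl2, Manf and Syvn1 are uncertain to that extent.

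Derl3, the derlin of secretory cells, had the largest log2 fold change of the set at the lowest level. It had 25, 27 and 28 counts in the TMAO libraries, against 4, 6 and 12 counts in the Control libraries, or 0.631, 0.743 and 0.730 CPM against 0.103, 0.145 and 0.291 CPM. The log2 fold change was 1.94 with an SE of 0.46 (edgeR adjusted p = 0.00369). Plasma cells express Derl3 strongly. Of 10 B and plasma cell markers listed, 8 were tested, and 6 of them were higher and 1 lower with TMAO. The summed level of all 10 was 198 to 229 CPM with TMAO and 285 to 301 CPM in Control, nearly all of it Sdc1. Pax5 had 12, 16 and 16 counts with TMAO and 0 in Control. The 2 markers not tested were near the floor. Mzb1 had 2, 0 and 5 counts with TMAO and 0 in Control, and Jchain had 42, 14 and 10 against 0, 1 and 0. Igkc was at 5.45, 7.81 and 5.81 CPM with TMAO, against 0, 0 and 0.0484 CPM in Control. The part of these cells in the Derl3 result was not tested.

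Of 3 translocon genes, 2 rose and 1 did not pass the test. Sec61b, the small beta subunit of the SEC61 channel, had 104, 144 and 127 CPM with TMAO, against 45.5, 54.3 and 44.0 CPM in Control, a 2.61-fold rise (log2 fold change 1.39, SE 0.13, edgeR adjusted p = 7.74e-06). Sec61a1, the pore-forming subunit, had 155, 69.0 and 123 CPM with TMAO, against 128, 115 and 123 CPM in Control. TMAO replicate 2 lay below every Control library and TMAO replicate 1 above every one. The log2 fold change of Sec61a1 was -0.08 (SE 0.22, edgeR adjusted p = 0.759) and turned to 0.18 without TMAO replicate 2, again without a call. Ssr1, a subunit of the translocon-associated protein complex, had 180, 213 and 191 CPM with TMAO, against 139, 139 and 140 CPM in Control, and rose 1.40-fold.

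Among the sensors, the transcript of Atf6 fell, that of Ern1 fell but lost its call with the length trend removed, and that of Eif2ak3 did not pass the test. Atf6 had 79.2, 64.1 and 68.8 CPM with TMAO, against 157, 143 and 170 CPM in Control, a 2.21-fold fall (log2 fold change -1.14, SE 0.11, edgeR adjusted p = 6.89e-06). It was the largest decrease of the set, and was at -0.57 and still called with the length trend removed. Atf6b, a paralog with weaker activity, had 97.6, 85.3 and 96.8 CPM with TMAO, against 84.1, 85.5 and 83.7 CPM in Control, and did not pass (edgeR adjusted p = 0.17). The ratio of Atf6 to Atf6b CPM was 0.812, 0.752 and 0.710 with TMAO, against 1.86, 1.67 and 2.02 in Control.

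Ern1 had 51.0, 36.8 and 38.6 CPM with TMAO, against 63.0, 55.6 and 68.7 CPM in Control, and fell (log2 fold change -0.57, SE 0.13, edgeR adjusted p = 0.00377). Ern1 was at -0.02 and not called once the length trend was removed (edgeR adjusted p = 0.807). Its substrate Xbp1 had 178, 199 and 193 CPM with TMAO, against 119, 131 and 112 CPM in Control, with no overlap. The rise of Xbp1 was 1.57-fold (log2 fold change 0.65, SE 0.09, edgeR adjusted p = 0.000118), and it was called at 0.45 with the length trend removed. These counts add the spliced and unspliced forms. Eif2ak3 had 28.5, 21.2 and 27.0 CPM with TMAO, against 26.5, 26.5 and 27.8 CPM in Control. Its log2 fold change of -0.07 (SE 0.12, edgeR adjusted p = 0.602) turned to 0.05 without TMAO replicate 2.

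**Figure D3:**
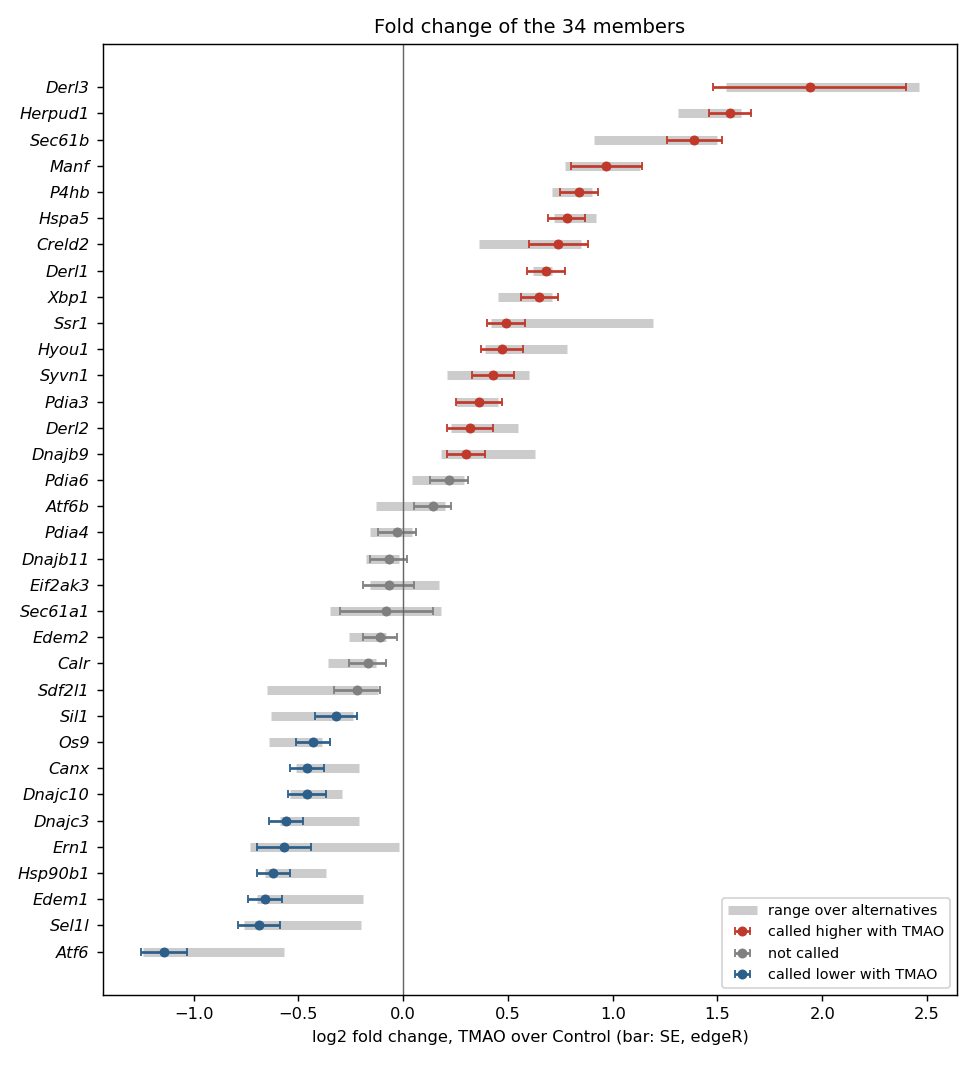
Points are log2 fold changes of TMAO over Control with their SE from edgeR, ordered from Derl3 at 1.94 to Atf6 at -1.14, and grey bars give the range over the 19 alternatives. The grey bars of Ssr1, Atf6, Ern1, Sel1l, Sec61b and Edem1 reach far to one side of the point, and their far ends are the values with the trend on transcript length removed.

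Transcript length moved with these results. The median length of the longest annotated transcript was 4711 bp for the 10 genes that fell and 2770 bp for the 15 that rose, against 3027 bp over all genes tested. Across the 34 genes the log2 fold change and the log2 length had a Spearman's rho of -0.47 and a Pearson's r of -0.53. Across the 14598 genes tested that have a length, rho was -0.33 and r was -0.24. These are descriptions over genes that share the same 6 libraries. With the length trend removed from every library, the calls of Ern1 and Dnajb9 were lost. The log2 fold changes of Dnajc3 and Dnajc10 were -0.21 and -0.29, closer to 0, and that of Sil1 was -0.63, farther from 0, all still called lower. Sec61b was at 0.91, Creld2 at 0.36, Herpud1 at 1.31, Derl2 at 0.55, Hyou1 at 0.78 and Ssr1 at 1.19 under this setting, all called higher. Sdf2l1, Calr, Edem2 and Dnajb11 were then called lower, at -0.65, -0.36, -0.26 and -0.18. Hspa5, P4hb, Derl1 and Hsp90b1 were at 0.88, 0.79, 0.68 and -0.61, against 0.78, 0.84, 0.68 and -0.62 without the correction. GC content also moved with the results, with a Spearman's rho against the log2 fold change of 0.33 across the 34 genes and 0.19 across all genes tested. Removing the GC trend ended the call of Syvn1 and brought 3 more, with Sdf2l1 and Edem2 lower, at -0.43 and -0.22, and Pdia6 higher, at 0.25. Under this setting Dnajb9 was at 0.63, Derl2 at 0.54, Sil1 at -0.51, Dnajc3 at -0.36 and Dnajc10 at -0.30, all still called.

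**Figure D4:**
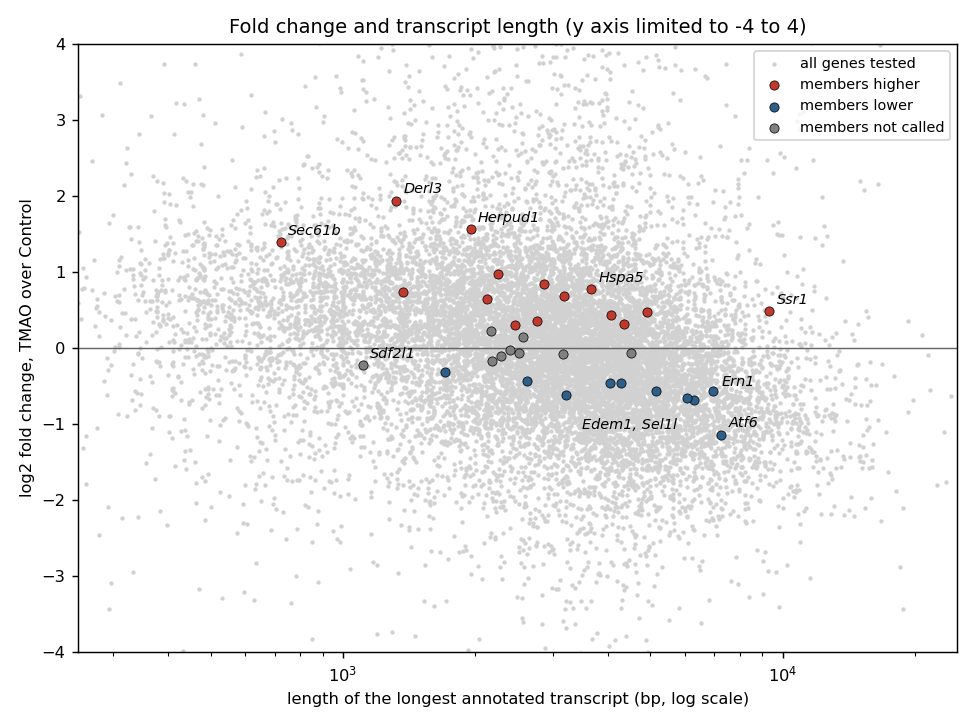
Each grey point is a gene tested, by the length of its longest annotated transcript on a log axis and its log2 fold change of TMAO over Control, and coloured points are the 34 genes. The long Edem1, Sel1l, Ern1 and Atf6 lie below 0, the long Ssr1 and the short Sec61b above, and 258 of the genes lie beyond the limits of 4 on the vertical axis.

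The rest of the ER pathway was described with 76 further genes in 5 lists. Of these, 46 rose, 14 fell and 16 did not pass, with a median log2 fold change of 0.38, and 78.9% were called against 65.7% of all genes tested. Among 18 other folding factors, 9 rose and 3 fell. Pdia5, an isomerase that acts on ATF6, rose 4.83-fold to 11.0 ± 0.941 CPM, against 2.28 ± 0.680 CPM. Ero1a, the oxidase that recharges PDI, rose 2.16-fold to 146 ± 12.6 CPM, against 67.3 ± 5.44 CPM. Nucb2, a calcium-binding protein, rose 1.89-fold.

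Among 19 other ERAD genes, 11 rose and 4 fell. Selenos, a selenoprotein that links derlins to the ATPase p97, rose 2.67-fold to 120 ± 16.5 CPM, against 45.1 ± 2.66 CPM. Ube2j2, an ERAD ubiquitin-conjugating enzyme, rose 2.50-fold. Edem3, the third EDEM gene, fell 2.62-fold to 22.0 ± 3.89 CPM, against 57.6 ± 8.96 CPM, and its longest transcript has 6327 bp. Edem1 and Edem3 thus fell and Edem2 did not pass the test.

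Of 20 other genes of translocation and glycosylation, 14 rose and 3 fell. Sec61g, the third subunit of the channel, rose 4.07-fold to 117 ± 24.5 CPM, against 28.6 ± 4.35 CPM. The channel's 2 small subunits therefore rose and the pore-forming Sec61a1 did not pass the test. Ssr2, a partner of Ssr1, rose 2.63-fold to 152 ± 13.1 CPM, against 57.8 ± 4.40 CPM. Srpr, the receptor of the signal recognition particle, rose 2.64-fold to 366 ± 26 CPM, against 138 ± 2.16 CPM.

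Partners of the sensors moved both ways, 5 of 10 higher and 4 lower. Creb3, an ER-bound transcription factor cut like ATF6, rose 4-fold to 134 ± 11.7 CPM, against 33.6 ± 2.79 CPM. Mbtps2, one of the Golgi proteases that release ATF6, fell 3-fold to 17.0 ± 3.13 CPM, against 51.1 ± 4.92 CPM. Mbtps1, the other protease, named after its value was seen, fell to 57.1 ± 6.48 CPM, against 77.9 ± 4.45 CPM. Atf6, Mbtps2 and Mbtps1 were therefore all lower. Their longest transcripts have 7246, 4797 and 6789 bp, against a median of 3027 bp over all genes tested. Atf6 was at -0.57 with the length trend removed, and the part of length in the values of the proteases was not tested. Traf2, an adaptor bound by active IRE1, rose 1.99-fold.

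Of 9 genes on the PERK and ATF4 side, 7 rose and none fell, with a median log2 fold change of 2.67, against 0.06 for the 34 genes and 0.01 over all genes tested. Atf4 itself, named after its value was seen, rose to 879 ± 34.5 CPM, against 185 ± 6.97 CPM, and Atf3 and Ppp1r15b did not pass the test. Chac1, which degrades glutathione, rose to 20.7 ± 2.55 CPM, against 0.293 ± 0.123 CPM. Trib3, a pseudokinase that restrains ATF4, rose 19.8-fold to 55.1 ± 2.47 CPM, against 2.79 ± 0.836 CPM. Asns, asparagine synthetase, rose 10.7-fold to 118 ± 10.4 CPM, against 11.0 ± 0.967 CPM. These genes are also known targets of ATF4 when amino acid shortage or other stresses raise it.

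**Figure D5:**
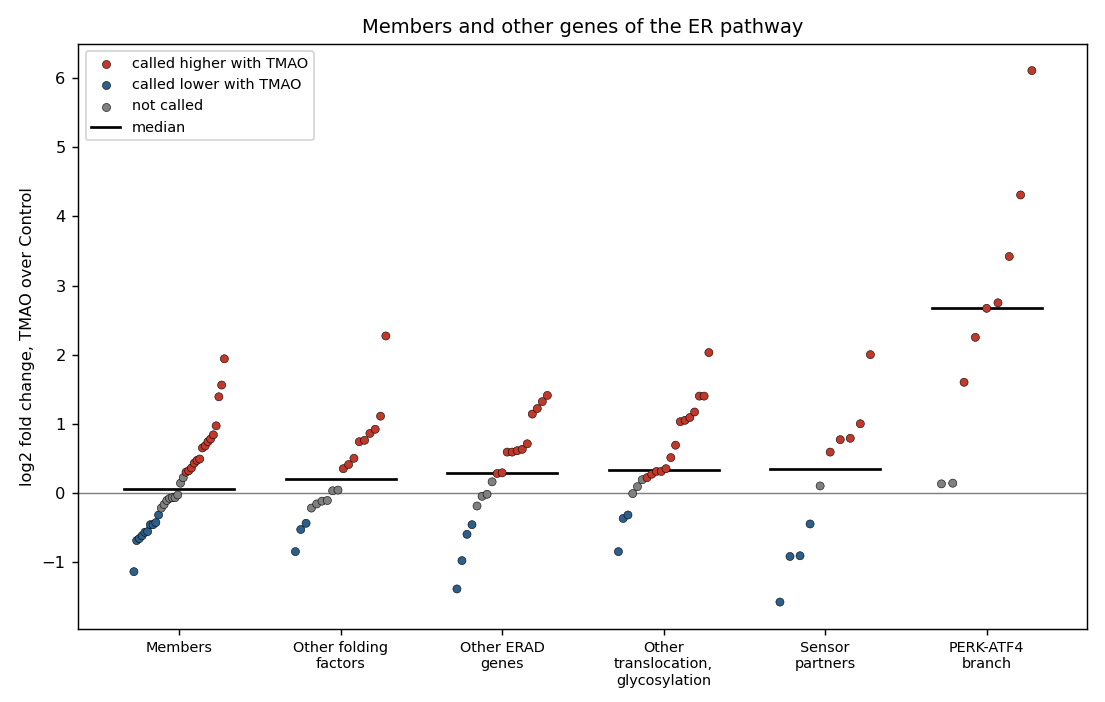
Points are log2 fold changes of TMAO over Control for the 34 genes, at the left, and for 5 lists of other genes of the ER pathway, coloured by the edgeR call, and black lines are medians. The PERK and ATF4 list has its median at 2.67, and the 34 genes lie on both sides of 0 with a median of 0.06.

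Libraries held 37759007 to 38935691 counts with TMAO and 38233772 to 41735109 in Control. All 12 macrophage markers listed were present in both groups, at 39793 to 48677 CPM summed with TMAO and 44321 to 49095 CPM in Control, and 4 rose and 5 fell. Lyz2 made up most of these sums, and the other 11 markers summed to 6786 to 7037 CPM with TMAO and 8869 to 9455 CPM in Control, with no overlap. Among those that fell, Adgre1 was 3.24-fold, Fcgr1 4.19-fold and Mertk 9.94-fold lower with TMAO, and C1qa, C1qb, C1qc and Mrc1 rose. Markers of other cell types moved with the groups. All 12 neutrophil markers rose, at 3750 to 5024 CPM summed with TMAO and 42.2 to 55.1 CPM in Control, as did all 6 monocyte markers (1001 to 1053 CPM against 176 to 226 CPM) and all 6 genes of mitosis (258 to 312 CPM against 42.9 to 46.0 CPM). Of 7 dendritic cell markers tested, 5 rose and 2 fell. Siglech, 1 of those that rose, had 40, 20 and 29 counts with TMAO and 0 in Control. Cd209a was not tested, with 8, 0 and 0 counts with TMAO and 0 in Control. All 8 listed summed to 248 to 302 CPM with TMAO and 526 to 684 CPM in Control. Bst2 and Itgax, the 2 that fell, made up nearly all of this sum, and the other 6 summed to 9.70 to 10.9 CPM with TMAO and 1.84 to 2.85 CPM in Control. In bulk RNA, a change in the share of a cell type and a change per cell cannot be told apart, and the part of these cells in the results above was not tested. T and NK cell markers summed to 1.87 to 2.56 CPM with TMAO and 0.206 to 0.509 CPM in Control. Nkg7, the only 1 of the 6 tested, held most of the TMAO sum, at 1.74, 1.9 and 2.24 CPM, against 0 in Control. Klrb1c was lower with TMAO, at 0.126, 0.11 and 0.104 CPM, against 0.206, 0.411 and 0.46 CPM in Control. Cd3e, Cd3d, Cd3g and Ncr1 had 0 to 4 counts per library. Markers of mast cells and basophils summed to 13 to 14.7 CPM with TMAO against 0.484 to 1.24 CPM in Control. Those of eosinophils summed to 9.03 to 10.3 CPM against 3.24 to 3.66 CPM. Stromal and endothelial markers summed to 8.76 to 10.4 CPM against 4.97 to 5.38 CPM. Of these 6 markers, Pecam1 and Pdgfrb were called higher and 4 (Col1a1, Col1a2, Dcn and Cdh5) did not pass the test. The sums of these lists were low but higher with TMAO, with no overlap, although the eosinophil marker Ccr3 was called lower. Erythroid and megakaryocyte markers summed to 317 to 503 CPM with TMAO and 42.3 to 62.6 CPM in Control.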

How the data were processed

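Raw gene counts of 6 libraries, with Ensembl IDs, were deposited by the authors as 1 table. The submitters' processing notes name GRCm39 as the build. Aligner, counter, strand setting and annotation release: not given in the sources used here. The labels' protocols name sequencers of 2 makers without saying which ran which library, so any platform difference cannot be told apart from the treatment. Groups and replicate numbers come from the titles, and columns were matched by the descriptions. No pair of libraries in a group agreed within sampling noise (chi-square per degree of freedom 13.0 to 65.6).

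Symbols and the longest transcript's length and GC content came from GENCODE M21, on the older build GRCm38 (25386 of 25751 IDs matched). Promoter windows came from RefSeq on GRCm38.p6, with coordinates of that build and not the authors'. The test was edgeR's quasi-likelihood F test (edgeR 4.0.16, with limma 3.58.1 in R 4.3.3), after filterByExpr (minimum count 10) and TMM scaling, of TMAO over Control without covariates, with Benjamini-Hochberg adjustment over 14626 genes and a threshold of 0.05. SE is the estimate over the square root of F, and errors are SD over 3 libraries. Steps were tested on simulated data. The alternatives were DESeq2 1.42.0, limma-voom, other scalings, filters and moderation, a fold of 1.5, a replicate block, length and GC trends removed and each library left out.

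The 34 genes, the other lists and the naming rule were chosen with earlier results of these data known. The rule gives values per library for genes called at 2-fold or more, the sensors, Hspa5 and the gene highest per length, and names up to 3 called genes per further list with the largest change and at least 5 CPM. Values per library of other genes were added after they were seen. Fcer1a, listed as a mast cell marker, was not found by symbol and not used here.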

Additional observations from a re-analysis of the deposited data

How the results depend on the processing

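Of 25 called genes among the 34, 19 kept direction and call in all 18 alternatives other than the test against a fold of 1.5, and 6 lost the call in at least 1 (Sil1, Dnajb9, Pdia3, Syvn1, Derl2 and Ern1). Derl3, counted among the 19, was dropped from the test by the filter of 1 CPM in 3 libraries. Against a fold of 1.5, the counts were 6 higher and 1 lower among the 34, against 15 and 10, and 2630 higher and 2554 lower over all genes, against 4830 and 4778. With the replicate block, 16 rose and 10 fell, the added call being Pdia6 (log2 fold change 0.23, edgeR adjusted p = 0.044). Same-numbered libraries correlated at 0.0321, 0.134 and -0.0672 in their deviations from the group means, and libraries with different numbers at -0.189 to 0.159. With 3 libraries per group, these values cannot show whether the numbers pair the libraries. The median log2 fold change of the 34 genes was 0.06, and it was -0.02 with the filter of 1 CPM in 3 libraries, -0.03 with the GC trend removed, and 0.03 to 0.19 with 1 library left out, highest without TMAO replicate 2; the cause was not tested. Directions that turned, all without a call, were those of Eif2ak3 (0.17 without the length trend, and -0.16 to 0.05 with 1 library left out), Pdia4 (0.04 without the GC trend, and -0.09 to 0.01), Atf6b (-0.13 without the GC trend) and Sec61a1 (-0.35 to 0.18), each highest without TMAO replicate 2 where 1 library was left out. Depth limited Derl3, with 4 to 28 counts per library.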
